A study of Mus musculus with 24 samples.

Results

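The genes described here are the transcription factor ATF4, stress regulators that it controls, and genes for amino acid synthesis, serine and one-carbon metabolism, amino acid transport and the charging of tRNA with amino acids. A list of 41 gene names set the membership, and it was chosen with earlier results of these data known. A probe was present for 38 of them, among 17741 genes on the array. Pycr1 of proline synthesis, Phgdh of serine synthesis and the tyrosyl-tRNA synthetase gene Yars had no probe. Each gene was read from the probe with the highest mean signal in the 24 arrays.

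RNA came from sorted bone marrow cells of C57BL/6 mice in 4 groups, on 24 one-colour arrays. LSK cells are the lineage-, ScaI+ and Kit+ fraction that is enriched for hematopoietic stem cells (HSC-enriched in the labels). MP cells are the myeloid progenitors, lineage-, ScaI- and Kit+, and both populations were taken from BAP1 WT and BAP1 KO mice. BAP1 removes ubiquitin from histone H2A in the nucleus. Its deletion was systemic and induced with tamoxifen, and the labels say of the mice in general that they were injected, without separating WT from KO. The sources used here give no ages. Each group held 2 mice with 3 arrays per mouse, and no mouse gave both populations. WT LSK cells came from mice 1 and 3, KO LSK cells from mice 2 and 4, WT MP cells from mice 5 and 6, and KO MP cells from mice 7 and 8. The question set by the design was how WT and KO cells differed in each population.

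Values are normalised log2 signals, and a mouse's value is the mean of its 3 arrays. A change is KO minus WT on that scale, with its standard error (SE). It was tested by limma over all probes with 2 mice per group, and a gene is said to have risen or fallen where the Benjamini-Hochberg adjusted p was under 0.05. Because the arrays read RNA in bulk, a change in the cells that make up a sorted fraction and a change in RNA per cell cannot be told apart.

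ATF4 is made when the initiation factor eIF2 is phosphorylated by kinases that sense uncharged tRNA, unfolded protein, double-stranded RNA or lack of heme. It is therefore controlled largely at translation and not by its mRNA alone. It binds, often with a C/EBP partner, a composite element in target genes that supply amino acids, glycine and one-carbon units, charge tRNA, or feed back on the response. In blood stem and progenitor cells this response is known for adjusting protein synthesis and survival under nutrient and proteotoxic stress.

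The element itself can be looked for in the members' promoters. Promoter windows, from 250 bases before to 50 bases after a RefSeq start (build GRCm38.p6), were present for 30 of the 38 members. The core of the element was searched as TGATGNAA on both strands, with the cAMP response element TGACGTCA and the E-box CACGTG beside it. The windows of 11 of the 30 members held the core, against 4.51% of 27025 genes and 3.97% of 32851 windows. The cAMP response element was found in 0 of the 30, against 2.03% of all genes, and the E-box in 6 of the 30, against 8.09%. These shares describe the letters in the windows, and the members were listed partly because ATF4 is known to act on them. Below are 280 bases of the promoters of 4 members that changed in KO cells, written 5′ to 3′ on the gene's strand to 30 bases after the start, with the core or its reverse complement in capitals. Trib3 lies at chr2:152344031-152344310 on the minus strand, Chac1 at chr2:119350992-119351271 on the plus strand, Slc1a4 at chr11:20332684-20332963 on the minus strand, and Ddit4 at chr10:59951741-59952020 on the minus strand.
Trib3: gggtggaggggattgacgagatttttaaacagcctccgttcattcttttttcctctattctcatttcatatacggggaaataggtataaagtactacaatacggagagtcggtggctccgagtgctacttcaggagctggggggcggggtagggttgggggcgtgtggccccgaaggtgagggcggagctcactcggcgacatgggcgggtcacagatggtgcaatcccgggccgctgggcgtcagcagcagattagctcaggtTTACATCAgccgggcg
Chac1: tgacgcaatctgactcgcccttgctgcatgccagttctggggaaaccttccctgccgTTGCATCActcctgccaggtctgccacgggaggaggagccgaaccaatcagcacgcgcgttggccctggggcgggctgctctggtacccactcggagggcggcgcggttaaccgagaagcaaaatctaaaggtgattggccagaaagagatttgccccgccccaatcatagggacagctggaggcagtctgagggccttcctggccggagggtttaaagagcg
Slc1a4: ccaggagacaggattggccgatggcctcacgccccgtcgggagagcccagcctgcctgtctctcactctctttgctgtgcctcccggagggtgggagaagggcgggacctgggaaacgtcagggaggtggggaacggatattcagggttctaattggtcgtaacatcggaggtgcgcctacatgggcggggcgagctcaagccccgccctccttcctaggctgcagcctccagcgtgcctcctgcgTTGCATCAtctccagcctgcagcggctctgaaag
Ddit4: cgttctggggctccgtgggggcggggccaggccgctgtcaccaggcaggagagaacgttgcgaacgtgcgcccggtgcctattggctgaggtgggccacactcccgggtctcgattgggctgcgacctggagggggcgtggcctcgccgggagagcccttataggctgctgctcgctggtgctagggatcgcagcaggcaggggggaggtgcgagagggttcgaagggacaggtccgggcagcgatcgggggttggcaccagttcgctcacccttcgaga
The matches of Chac1 and Slc1a4 share the same 8 letters, 193 and 4 bases before the start. Trib3's match began 15 bases after the start and differs from them within the core's free position. These letters were not found in the Ddit4 window. Cores were also found for Nupr1, Vldlr, Asns, Slc7a11, Aars, Gars, Iars and Tars. Of the 10 members that passed the test in LSK cells, in MP cells or in the mean of both, 8 had a window and 5 of those held a core. Of the 28 other members, 22 had a window and 6 of those held a core. Cth and Slc7a3, described below, had no window.

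The sorted populations differed in most markers of their labels. The transcription factor gene Hlf read 13.79 to 14.59 in LSK and 10.31 to 11.18 in MP mice. Elane of neutrophil granules read 8.63 to 11.40 in LSK and 12.76 to 13.63 in MP mice. Of 9 LSK markers, 6 passed as higher in LSK than in MP cells and 0 as lower in WT mice (8.08% and 5.46% of all genes). In KO mice 6 passed as higher and 2 as lower (7.26% and 5.49%). Of 12 myeloid progenitor markers, 8 passed as lower in LSK cells and 0 as higher in either genotype. Ly6a, which encodes Sca1, had no probe. The Bap1 probe read 11.55 and 11.45 in WT and 11.96 and 11.84 in KO LSK cells, and 11.54 and 11.59 in WT and 11.67 and 11.85 in KO MP cells. It was not lower in KO cells, its position relative to the deleted part is not known here, and it does not check the labels. The probe of the Y-linked gene Kdm5d read 7.88 in mouse 1 and 8.15 in mouse 5, both WT, and 5.93 to 6.03 in the other 6 mice, so each WT group was mixed for this signal and neither KO group held it. Values without mice 1 and 5 are given where they end a call. Replicate arrays of a mouse had a median correlation of 0.994, and arrays of different mice of a group 0.987.

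In LSK cells 37 of the 38 members had a positive KO minus WT change, and in MP cells 34 of the 38, against 54.5% and 50.5% of all genes. The members' median change was 0.40 in LSK cells and 0.44 in MP cells, where the medians of all genes were 0.02 and 0.00. Fewer passed the test. In LSK cells 4 rose (Trib3, Chac1, Ddit4 and Atf5), where 1.74% of all genes rose, and Vldlr fell, where 2.90% of all genes fell. In MP cells 8 rose (the same 4 with Nupr1, Cth, Slc7a3 and Slc1a4), where 0.908% of all genes rose, and 0 fell, where 1.74% fell. In the mean of both contrasts 9 rose, these 8 and Mthfd2, where 3.09% of all genes rose, and 0 fell, where 4.85% fell. At an unadjusted limma p under 0.05, 17 were higher and 1 lower in LSK cells (7.37% and 9.21% of all genes), and 14 were higher and 0 lower in MP cells (4.88% and 6.56%). The LSK and MP contrasts share no mouse.

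**Figure D1:**
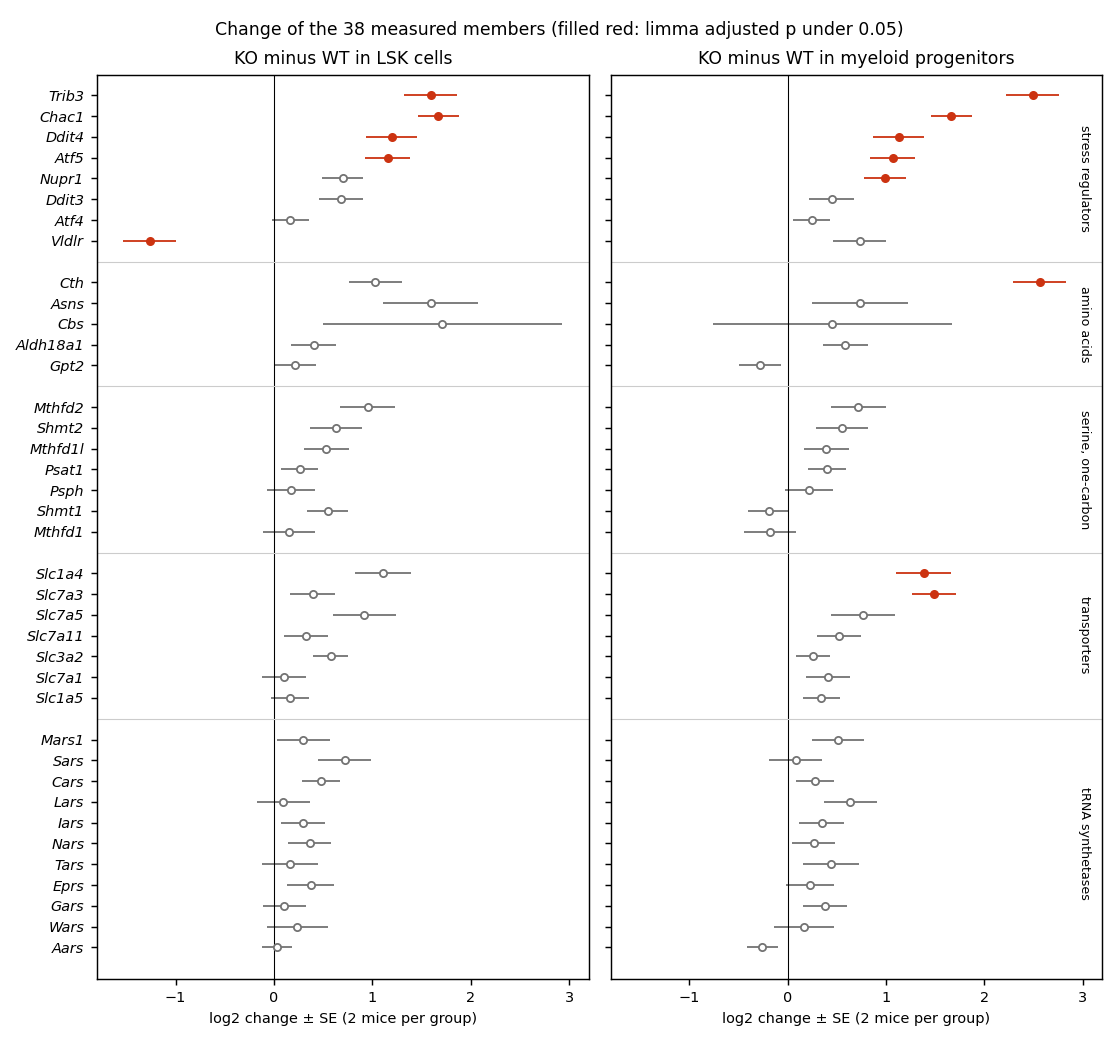
Change of each of the 38 measured members in KO against WT cells, on the log2 scale with its SE (2 mice per group), for LSK cells and MP cells, with the genes grouped by role on the vertical axis. Filled red points passed the limma test. Most points lie to the right of 0 in both populations. In MP cells Cth and Trib3 reach farthest, and in LSK cells Cbs, with a wide SE, and Chac1. The 11 synthetases run from 0.03 to 0.72 in LSK cells and from -0.26 to 0.64 in MP cells.

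Without a test, the overlap of single mice was counted from the same mouse means. Both KO mice lay above both WT mice for 23 of the 38 members in LSK cells, where 25.7% of all genes did so, and for 26 in MP cells, where 20.3% did so. Both lay below both WT mice for 1 member in LSK cells and 3 in MP cells, against 20.9% and 20.8% of all genes. For 16 members the KO mice were above in both populations, against 8.27% of all genes, and for 0 members below in both, against 9.24%. The 16 were Trib3, Chac1, Ddit3, Ddit4, Atf5, Nupr1, Asns, Cth, Aldh18a1, Mthfd1l, Mthfd2, Slc7a3, Slc7a5, Slc3a2, Slc1a4 and Cars. By role they were 6 of 8 stress regulators, 3 of 5 amino acid enzymes, 2 of 7 serine and one-carbon enzymes, 4 of 7 transporters and 1 of 11 synthetases.

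Among the stress regulators, the mRNA of Atf4 itself did not pass the test. It read 13.05 and 12.99 in WT and 13.12 and 13.24 in KO LSK cells. In MP cells it read 13.32 and 12.86 in WT and 13.27 and 13.39 in KO mice. The KO mice were above the WT mice in LSK cells by little, and the MP groups overlapped. Its mean change over both populations was 0.20 (95% interval -0.09 to 0.50, limma adjusted p = 0.499), so that the interval ends below a 2-fold change.

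Trib3, a pseudokinase that is induced by ATF4 and restrains it, had the largest mean change of the members. In LSK cells it read 9.99 and 9.30 in WT and 11.19 and 11.30 in KO mice, and in MP cells 6.80 and 6.99 in WT and 9.14 and 9.63 in KO mice. The groups were well apart in both populations. Trib3 rose by 1.59 ± 0.27 (SE) in LSK cells, 3.02-fold (limma adjusted p = 0.00767), and by 2.49 ± 0.27 in MP cells, 5.63-fold (limma adjusted p = 0.000874). By size of increase it stood at rank 52 of 17741 genes in LSK cells and at rank 6 in MP cells. WT LSK cells already held 2.75 more Trib3 on the log2 scale than WT MP cells (limma adjusted p = 0.000138). KO MP mice thereby came to the level of the lower WT LSK mouse, as the plot of single mice shows.

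Chac1 encodes a glutathione-degrading enzyme and is a sensitive ATF4 target. It read 7.96 and 8.02 in WT and 9.48 and 9.84 in KO LSK cells, and 7.86 and 7.70 in WT and 9.51 and 9.38 in KO MP cells. WT mice of both populations fell within a narrow range and all 4 KO mice lay above them. The rise was 1.67 ± 0.21 in LSK cells (3.19-fold, limma adjusted p = 0.00156) and 1.66 ± 0.21 in MP cells (3.17-fold, limma adjusted p = 0.00186). The rises differed by 0.01, with a 95% interval from -0.64 to 0.65. Trib3 and Chac1 passed in both populations without any 1 mouse and without mice 1 and 5 together. Their highest adjusted p without 1 mouse was 0.0495 for Trib3 in LSK cells and 0.0201 for Chac1 in MP cells.

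**Figure D2:**
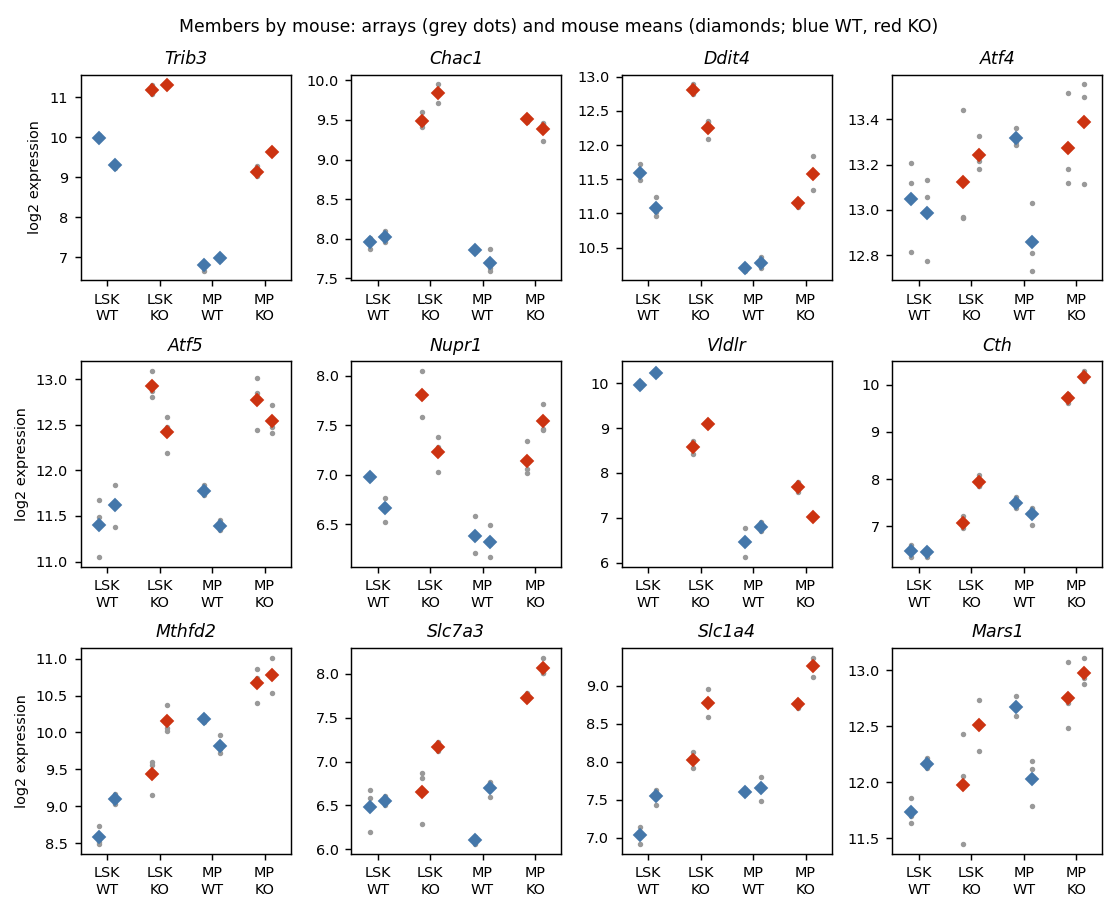
Log2 signal of members described in the text in each group: grey dots are single arrays and diamonds are mouse means, blue for WT and red for KO, with 2 mice and 3 arrays per mouse in each group. For Trib3 and Chac1 all KO mice lie above the WT mice of their population, and for Vldlr the KO mice lie below the WT mice in LSK cells and above them in MP cells.

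Ddit4 (REDD1), an inhibitor of mTORC1 signalling, read 11.59 and 11.08 in WT and 12.81 and 12.26 in KO LSK cells. Its MP values were 10.20 and 10.28 in WT and 11.15 and 11.58 in KO mice. The groups did not overlap in either population. Ddit4 rose by 1.20 ± 0.26 in LSK cells (2.29-fold, limma adjusted p = 0.0276) and by 1.13 ± 0.26 in MP cells (2.19-fold, limma adjusted p = 0.0497). Atf5, a transcription factor of the same family that is itself controlled at translation, read 11.40 and 11.62 in WT and 12.92 and 12.41 in KO LSK cells. In MP cells Atf5 read 11.77 and 11.39 in WT and 12.77 and 12.53 in KO mice. Every KO mouse exceeded every WT mouse. Atf5 rose by 1.16 ± 0.23 (limma adjusted p = 0.0179) and by 1.07 ± 0.23 (limma adjusted p = 0.0352) in that order. Both calls were fragile within a population. In LSK cells Ddit4 no longer passed without mouse 2 or 3 and Atf5 without mouse 1 or 2, with changes of 0.92 to 1.47 and 0.90 to 1.41. In MP cells leaving out any 1 of mice 5, 6, 7 and 8 ended either call, with changes of 0.92 to 1.35 for Ddit4 and 0.88 to 1.26 for Atf5. Without mice 1 and 5 the adjusted p was 0.0757 and 0.209 for Ddit4 and 0.141 and 0.0900 for Atf5 in LSK and MP cells. In the mean of both contrasts Ddit4 (1.16 ± 0.18, limma adjusted p = 0.00307) and Atf5 (1.11 ± 0.16, limma adjusted p = 0.00193) passed without any 1 mouse and without mice 1 and 5.

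Nupr1, a small stress-induced chromatin protein, read 6.98 and 6.66 in WT and 7.81 and 7.23 in KO LSK cells. Its MP values were 6.38 and 6.32 in WT and 7.14 and 7.54 in KO mice. The WT MP values were near the floor of the array, where 25% of the probes of each array read below 6.15 to 6.18 and a fold is compressed. Nupr1 rose in MP cells by 0.99 ± 0.21 (limma adjusted p = 0.036), a call that was lost without mouse 5, 6 or 8 (0.79 to 1.19) and without mice 1 and 5 (limma adjusted p = 0.195). The LSK change was 0.70 ± 0.21 (limma adjusted p = 0.104). Ddit3, which encodes the factor CHOP, lay higher in all KO mice, with changes of 0.68 in LSK cells (limma adjusted p = 0.142) and 0.45 in MP cells (limma adjusted p = 0.543). It passed in neither.

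Vldlr, a lipoprotein receptor known as an ATF4 target, ran the other way in LSK cells. It read 9.97 and 10.23 in WT and 8.57 and 9.09 in KO LSK cells, and 6.45 and 6.79 in WT and 7.69 and 7.01 in KO MP cells. KO mice thus lay below WT mice in LSK cells and above them in MP cells. Vldlr fell by 1.27 ± 0.27 in LSK cells, 2.40-fold (limma adjusted p = 0.025), and its MP change was 0.73 ± 0.27 (limma adjusted p = 0.289). The changes differed by -2.00 ± 0.38 (95% interval -2.84 to -1.16), which had an unadjusted limma p of 0.000285 and an adjusted p of 0.113. Vldlr was also the member with the widest gap between WT populations, 3.48 higher in LSK than in MP cells (limma adjusted p = 5.86e-05), and in KO cells this gap was 1.48 (limma adjusted p = 0.00574). A second Vldlr probe changed by -0.97 in LSK cells (limma adjusted p = 0.0215) and by 0.77 in MP cells (limma adjusted p = 0.0869). The LSK call was lost without mouse 1, 2 or 3, with changes between -1.53 and -1.0, and without mice 1 and 5 (limma adjusted p = 0.133).

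The amino acid enzymes differed among themselves. Cth, cystathionine gamma-lyase, makes cysteine from cystathionine. It read 6.49 and 6.45 in WT and 7.07 and 7.93 in KO LSK cells, and 7.49 and 7.26 in WT and 9.72 and 10.16 in KO MP cells. Both KO groups lay above WT, the MP group by the wider margin. Cth rose in MP cells by 2.56 ± 0.27, 5.90-fold (limma adjusted p = 0.00089), and stood at rank 5 of 17741 genes there. The MP call held without any 1 mouse (2.34 to 2.78). In LSK cells the change was 1.03 ± 0.27 (limma adjusted p = 0.0635). The LSK change was smaller than the MP change by 1.53 (95% interval of the difference -2.38 to -0.69), with an unadjusted limma p of 0.00222 and an adjusted p of 0.295. The KO LSK minus KO MP difference of Cth was -2.44 (limma adjusted p = 0.000481).

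Asns, asparagine synthetase, is the textbook ATF4 target. Its WT mice were far apart: 10.69 and 11.92 in LSK cells and 12.55 and 13.42 in MP cells. KO mice read 12.57 and 13.22 in LSK cells and 13.51 and 13.93 in MP cells, above the WT mice in both. The change of 1.59 ± 0.49 in LSK cells (limma adjusted p = 0.162) was as large as that of Trib3 and did not pass at this spread, and the MP change was 0.74 ± 0.49 (limma adjusted p = 0.740). Cbs, the enzyme before cystathionine gamma-lyase, was near the floor in 6 of the 8 mice. It read 9.47 in KO LSK mouse 2, in all 3 arrays (9.13, 9.73 and 9.55), against 6.04 in KO mouse 4 and 6.02 and 6.07 in the WT mice. In MP cells KO mouse 8 read 7.21, and mice 5, 6 and 7 read 6.33, 6.26 and 6.29. The second Cbs probe changed by 0.19 and 0.11, and neither population passed. Aldh18a1, which starts proline synthesis from glutamate, had changes of 0.40 and 0.59, and Gpt2, mitochondrial alanine transaminase, of 0.22 and -0.29. None of these passed.

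**Figure D3:**
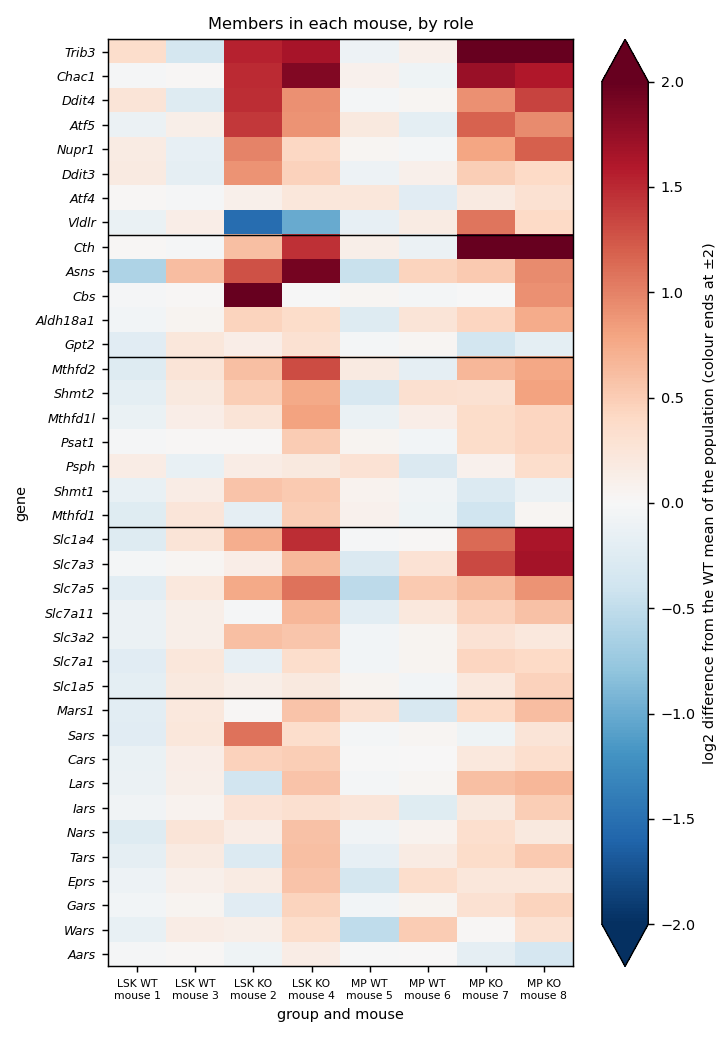
Difference of each mouse from the WT mean of its population, on the log2 scale, for the 38 members (rows, grouped by role) and the 8 mice (columns, by group). Red is above and blue below the WT mean, with the colour ending at 2 in either direction. Cbs is far above the WT mean in KO mouse 2 and less so in KO mouse 8, and Vldlr is below it in the KO LSK mice.

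The serine and one-carbon enzymes turn glucose carbon into serine and then glycine and formyl groups. Mthfd2, the mitochondrial methylenetetrahydrofolate dehydrogenase, read 8.58 and 9.10 in WT and 9.44 and 10.15 in KO LSK cells, and 10.18 and 9.82 in WT and 10.67 and 10.77 in KO MP cells. KO mice were above WT mice in both populations. The changes of 0.95 ± 0.28 (limma adjusted p = 0.0953) and 0.72 ± 0.28 (limma adjusted p = 0.338) passed in neither alone, and Mthfd2 rose in their mean by 0.84 ± 0.20 (limma adjusted p = 0.0276). That call was lost without mouse 1, 4, 6, 7 or 8 (0.66 to 1.01, highest limma adjusted p = 0.107) and without mice 1 and 5 (limma adjusted p = 0.128).

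The brightest probes of the other mitochondrial enzymes had positive changes in both populations. Shmt2, serine hydroxymethyltransferase of mitochondria, changed by 0.63 in LSK and 0.55 in MP cells, and Mthfd1l, the mitochondrial formate-releasing enzyme, by 0.53 and 0.39. The 3 dimmer Mthfd1l probes changed by 1.18, 0.19 and 0.03 in LSK cells and by -0.70, 0.44 and -0.01 in MP cells, in that order, with 0 of them called. Their cytosolic counterparts had negative changes in MP cells: Shmt1 changed by 0.55 in LSK and -0.19 in MP cells, and Mthfd1 by 0.15 and -0.18. Psat1 and Psph, which complete serine synthesis after Phgdh, changed by 0.26 and 0.17 in LSK and by 0.40 and 0.22 in MP cells. None of these 6 passed in either population or in the mean, where Shmt2 came nearest (0.59, limma adjusted p = 0.0966).

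Among the amino acid transporters, Slc7a3 and Slc1a4 passed. Slc7a3, a cationic amino acid transporter, read 6.49 and 6.55 in WT and 6.66 and 7.17 in KO LSK cells, close to the floor. In MP cells it read 6.11 and 6.70 in WT and 7.73 and 8.07 in KO mice, with the KO mice well above. Slc7a3 rose in MP cells by 1.49 ± 0.23 (2.81-fold, limma adjusted p = 0.00841), and its LSK change was 0.39 ± 0.23 (limma adjusted p = 0.466). The difference of these changes was -1.10 (95% interval -1.81 to -0.38, limma adjusted p = 0.439). The MP call was lost without mouse 5 or 8 (1.19 to 1.79, highest limma adjusted p = 0.0895). Without mice 1 and 5 the adjusted p was 0.0904 in MP cells and 0.0635 for the mean.

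Slc1a4, a carrier of alanine, serine and cysteine, read 7.04 and 7.54 in WT and 8.02 and 8.77 in KO LSK cells. In MP cells it read 7.60 and 7.66 in WT and 8.76 and 9.26 in KO mice. The KO mice were above in both populations. Slc1a4 rose in MP cells by 1.38 ± 0.28 (2.61-fold, limma adjusted p = 0.0296), and its LSK change was 1.11 ± 0.28 (limma adjusted p = 0.0562). Its mean rise was 1.25 ± 0.20 (limma adjusted p = 0.00354). The MP call was lost without mouse 5, 6 or 8 (1.13 to 1.63), and without mice 1 and 5 the adjusted p was 0.187 in MP cells and 0.0667 for the mean.

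The chains of the large neutral amino acid exchanger, Slc7a5 (LAT1) and its partner Slc3a2 (4F2hc), were higher in all KO mice of both populations but passed in neither population nor in the mean. Slc7a5 changed by 0.92 and 0.77 (mean 0.84, limma adjusted p = 0.0523) and Slc3a2 by 0.57 and 0.26 (mean 0.42, limma adjusted p = 0.0714). Slc7a11, the cystine importer, changed by 0.32 and 0.52. Slc7a1, the main arginine importer, changed by 0.10 and 0.41, and Slc1a5, a glutamine carrier, by 0.16 and 0.34. In MP cells both KO mice were above both WT mice for all 7 transporters, and in LSK cells for 4 of them.

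The 11 aminoacyl-tRNA synthetases, which join each amino acid to its tRNA, had small changes and 0 passed in LSK cells, in MP cells or in the mean. Leaving out mouse 1 moved their LSK median from 0.29 to 0.095, leaving out mouse 2 to 0.49 and leaving out mouse 4 to 0.12. Sars passed in LSK cells in the fit that lacked mouse 4. At an unadjusted limma p under 0.05, Sars and Cars were higher in LSK cells and Lars in MP cells, where 7.37% and 4.88% of all genes were. The LSK changes of the 11 ran from 0.03 (Aars, alanyl) to 0.72 (Sars, seryl), and the MP changes from -0.26 (Aars) to 0.64 (Lars, leucyl). Mars1 (methionyl) had the largest mean change, 0.41 (limma adjusted p = 0.284). It read 11.73 and 12.16 in WT and 11.98 and 12.51 in KO LSK cells, and 12.67 and 12.03 in WT and 12.75 and 12.97 in KO MP cells. The LSK groups overlapped and the MP groups did not. Sars read 12.03 in KO LSK mouse 2 and 10.72 to 11.31 in the other LSK mice. Aars, with a pair of core matches in its window, had the lowest change of the group in both populations. Its probe was also the dimmest of the 11, with a mean of 7.37 where the median over all probes was 7.20.

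KO mice differed from each other. Measured from the WT mean of the population, the median member stood 0.27 higher in mouse 2, 0.53 in mouse 4, 0.37 in mouse 7 and 0.48 in mouse 8. The stress regulators had a higher median in mouse 2 (1.20) than in mouse 4 (0.68). For the transporters (0.14 and 0.65) and the synthetases (0.12 and 0.49) the order was the reverse. In MP cells the stress regulators were alike in mice 7 and 8 (0.99 and 1.07).

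WT mice differed too. Mouse 1 read below mouse 3 for 31 of the 38 members, against 51.8% of all genes, and mouse 5 read below mouse 6 for 24, against 51.7%. Both held for 21 members (55.3%, against 29.9% of all genes), among them 9 of 11 synthetases, 6 of 7 transporters and 1 of 8 stress regulators. Mice 1 and 5 are those with the Kdm5d signal. The members' median LSK change was 0.34 without mouse 1, 0.53 without mouse 2, 0.51 without mouse 3 and 0.27 without mouse 4. In MP cells it was 0.35 without mouse 5, 0.55 without mouse 6, 0.48 without mouse 7 and 0.37 without mouse 8. Without mice 1 and 5 together it was 0.34 and 0.35, and 2 members were called in LSK cells (Trib3 and Chac1) and 3 in MP cells (Trib3, Chac1 and Cth), where 1.87% and 1.37% of all genes were called. With eBayes lacking its trend and robust options, Ddit4, Atf5 and Vldlr lost their LSK calls and Ddit4, Atf5, Nupr1, Slc7a3 and Slc1a4 their MP calls (limma adjusted p from 0.0602 to 0.146), and Mthfd2 its call in the mean (0.0803). Slc3a2 gained a call in LSK cells, and Slc3a2 and Cars in the mean. That fit called 3.09% of all genes in LSK cells, 1.62% in MP cells and 6.74% in the mean. Ddit4 also lost its LSK call with the compared groups alone (0.0557), and its MP call after cyclic loess (0.0608) or with all probes of a gene averaged (0.0549).

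Cell type markers were read beside the members. Of 12 myeloid progenitor markers 3 rose in KO LSK cells, where 1.74% of all genes did: Elane (neutrophil elastase, 1.91 ± 0.39, limma adjusted p = 0.0311), Ctsg (cathepsin G, 1.21, limma adjusted p = 0.0471) and Cebpe (0.91, limma adjusted p = 0.0349). Their list had a median change of 0.48 in LSK and -0.03 in MP cells. The LSK median was 0.05 without mouse 1, 0.71 without mouse 2, 0.83 without mouse 3 and 0.19 without mouse 4. In no fit that left out 1 mouse did all of these calls hold. The mean level of the 12 markers was 9.99 and 10.76 in WT and 10.68 and 11.15 in KO LSK mice. It was 12.24 to 12.52 in the 4 MP mice. All 12 were lower in WT mouse 1 than in WT mouse 3, against 51.8% of all genes. Of 9 LSK markers 0 passed in LSK cells, where 1.74% of all genes rose and 2.90% fell, and their median was -0.41. In MP cells 0.908% of all genes rose and 1.74% fell, and 0 of the 12 myeloid progenitor markers passed. The LSK marker list had a median of 0.34 there, with 6 of 9 positive, 0 risen and 1 fallen, Cd34 (-1.18, limma adjusted p = 0.00647). The mature myeloid list had a median of 0.23, with 4 of 7 positive, 0 risen and 1 fallen, the macrophage marker Adgre1 (-0.94, limma adjusted p = 0.0303). Of 7 erythroid markers 3 had a probe, and all 3 had negative changes in both populations (medians -0.74 in LSK and -1.62 in MP cells). Among them the membrane gene Epb42 fell in both populations (-1.31, limma adjusted p = 0.0311, and -1.84, limma adjusted p = 0.00746). The part of these cell type markers in the members' changes was not tested.

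Whether the KO minus WT change differed between populations was tested for each member. With mouse means, 0 of the 38 differences between the LSK and MP changes passed, where 0.0620% of all genes passed. At an unadjusted limma p under 0.05, the LSK change exceeded the MP change for 1 member, Shmt1 (2.96% of all genes). It lay below the MP change for 4 members, Trib3, Vldlr, Cth and Slc7a3 (3.38% of all genes). These 4 members passed when single arrays were fitted with mouse as a random block, where 2.56% of all genes passed. The mouse and not the array is the replicate, and with mouse means none of the 4 passed. Without mouse 4, Vldlr, Cth and Cbs passed, where 0.659% of all genes did. The LSK and MP changes of Trib3 differed by -0.90 (95% interval -1.74 to -0.06, limma adjusted p = 0.776).

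The populations themselves differed for some members. Of the 38, 9 passed between WT LSK and WT MP cells, where 13.5% of all genes did. In LSK cells 3 were higher, Trib3 (2.75), Ddit4 (1.10) and Vldlr (3.48), where 8.08% of all genes were higher. The 6 lower ones, where 5.46% of all genes were lower, were Mthfd1 (-1.17), Mthfd2 (-1.16), Psph (-1.0), Aldh18a1 (-0.98), Iars (-0.83) and Aars (-0.60). The medians of WT LSK minus WT MP were -0.66 for the serine and one-carbon enzymes, -0.91 for the amino acid enzymes and -0.29 for the synthetases. Between KO LSK and KO MP cells 8 passed, where 12.8% of all genes did: 3 were higher in LSK cells (Trib3, Ddit4 and Vldlr, where 7.26% of all genes were) and 5 lower (Cth, Aldh18a1, Psph, Slc7a3 and Iars, where 5.49% were). The WT count was 2 without mouse 1 (6.07% of all genes) and also without mice 1 and 5 (Trib3 and Vldlr; 3.48% of all genes), 6 without mouse 3 (9.76%), 4 without mouse 5 (8.07%) and 5 without mouse 6 (9.53%). The KO count was 16 without mouse 4 (15.1% of all genes), 4 without mouse 2 (6%), 5 without mouse 7 (5.28%) and 3 without mouse 8 (5.69%).

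Other genes of the same pathway were read beside the members. Of 19 further targets of ATF4 and the integrated stress response, 1 rose in LSK cells, where 1.74% of all genes did: Cebpb (1.04 ± 0.23, limma adjusted p = 0.034), which encodes a partner of ATF4. In MP cells 1 rose, where 0.908% of all genes did: the secreted glycoprotein gene Stc2 (0.90 ± 0.16, limma adjusted p = 0.0145). The medians of these 19 were 0.00 in LSK and 0.19 in MP cells. Atf3 stayed near the floor in every mouse (5.89 to 6.17). Sesn2, an mTORC1 inhibitor, changed by -0.25 and 0.37, and Eif4ebp1, a repressor of cap-dependent translation, by 0.58 and 0.48, and neither passed.

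Upstream of ATF4, 0 of 14 genes for the eIF2 kinases and the subunits of eIF2 and eIF2B passed in any KO minus WT contrast (medians 0.11 and 0.20). The 14 changes ran from -0.47 to 0.54 in LSK cells and from -0.29 to 0.69 in MP cells, with 8 and 9 of them positive. Among the kinases, Eif2ak4 (GCN2) changed by -0.23 and -0.19 and Eif2ak3 (PERK) by -0.47 and -0.29. The ATF6 and XBP1 branches of the unfolded protein response had medians of -0.19 and -0.10 over 16 genes, 0 of them called. At an unadjusted limma p under 0.05, 3 of the 16 were lower in LSK cells and 0 in MP cells, where 9.21% and 6.56% of all genes were. Hspa5, the main chaperone of the endoplasmic reticulum, changed by -0.28 and -0.20. Kinase activity and splicing of Xbp1 are not read by these arrays.

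Neighbouring metabolic lists had 0 called members in either population. Medians in LSK and MP cells were 0.19 and 0.09 for 10 other cytosolic synthetases, 0.24 and 0.08 for 14 mitochondrial synthetases, 0.03 and 0.14 for 10 other enzymes of the folate and methionine cycles, and -0.06 and 0.08 for 11 glutathione and NRF2 target genes. At an unadjusted limma p under 0.05, 4 of the mitochondrial synthetases were higher in LSK cells and 0 in MP cells, where 7.37% and 4.88% of all genes were. In the mean of both contrasts Ggct, gamma-glutamylcyclotransferase, fell by 0.62 ± 0.15 (limma adjusted p = 0.0287), while Chac1, which acts on glutathione to give the same kind of cyclic product, rose.

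**Figure D4:**
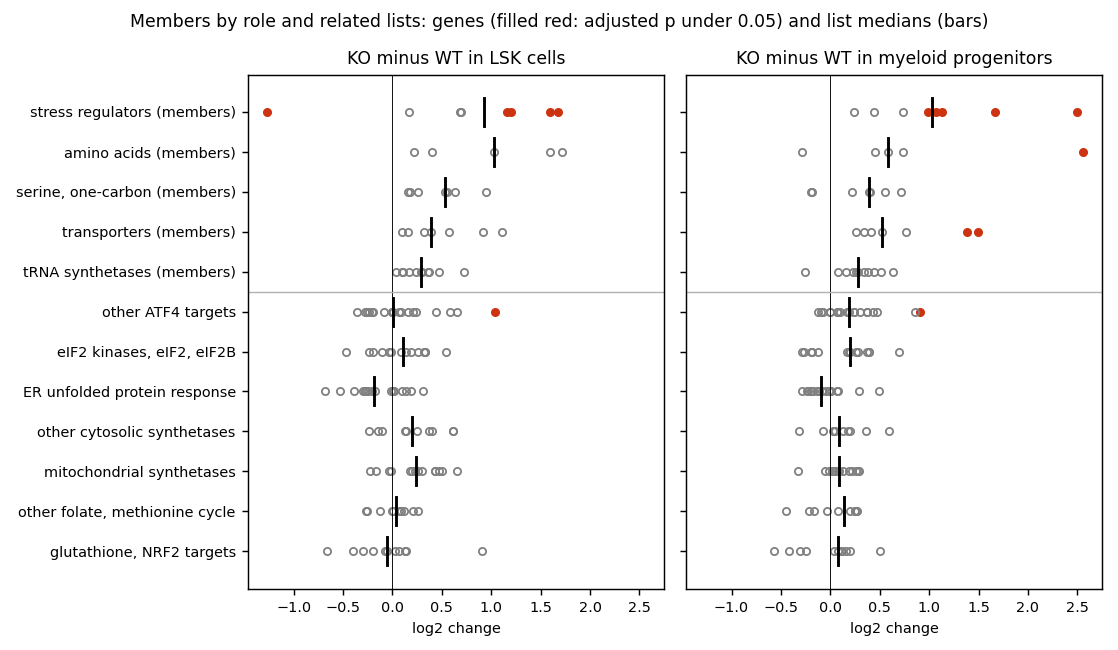
KO minus WT log2 change of each gene of the members' role groups (above the grey line) and of the related lists (below it), in LSK cells and in MP cells. Points are genes, filled red where the limma adjusted p was under 0.05, and bars are list medians. The stress regulators have medians of 0.93 and 1.03 and the related lists lie between -0.19 and 0.24.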

How the data were processed

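The authors deposited log2 expression values. Per the submitters' processing notes they used limma, with no version named. The log2 scale was read from the values, which run from 5.66 to 15.93. At equal rank, the 24 arrays lie within 0.0451 of each other, as after quantile normalization. No scanner, background correction or spot filter is named: these are not given in the sources used. Arrays have no count depth, and 2 mice per group limit the precision.

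Of 22439 probes, 18213 were named by current symbol and 2126 by synonym through a RefSeq gene table (GRCm38.p6, for names only), 36 kept the array's name and 2064 had no symbol. The 3 arrays of a mouse were averaged. All 4 groups entered a model of the 8 mouse means in limma 3.58.1 (R 4.3.3), with moderated variances by eBayes (trend and robust), 4 residual and a median of 6.91 prior degrees of freedom. Two-sided p-values were adjusted by the Benjamini-Hochberg method across every probe and called under 0.05. The fit was tested on simulated data.

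Values of every mouse are given for members past the threshold in a KO minus WT contrast, their mean or their difference, for the member with the largest mean change of each role, and for Atf4. Asns, Cbs, Sars and Shmt1 were added after their values were seen. The members and the gene lists were chosen with earlier results of these data known. Alternatives were mouse as a random block, array number as a replicate block, each mouse left out, both mice with a Kdm5d signal left out, a filter on dim probes, plain eBayes, cyclic loess, all probes of a gene, and the compared groups alone.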

Additional observations from a re-analysis of the deposited data

Results flagged for a closer look

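For Vldlr and Shmt1 the KO mice of the populations moved to opposite sides of the WT mice. Among all genes, both KO mice lay above both WT mice for 25.7% in LSK and 20.3% in MP cells. They lay below for 20.9% and 20.8%. The share of all genes on opposite sides in the populations was not counted. Vldlr was lower in both KO LSK mice and higher in both KO MP mice, and its change in LSK cells minus that in MP cells was -2.00 ± 0.38 (SE, limma adjusted p = 0.113). The second Vldlr probe gave -1.74 (limma adjusted p = 0.0784). Shmt1, cytosolic serine hydroxymethyltransferase, read 9.75 and 10.05 in WT and 10.48 and 10.42 in KO LSK cells, and 10.59 and 10.45 in WT and 10.24 and 10.41 in KO MP cells. Its difference between populations was 0.74 ± 0.29 (limma adjusted p = 0.727). Neither difference passed the test, and the reason for either was not tested.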

How the results depend on the processing

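No called change of a named member turned its direction under any alternative run. Counts of members called in LSK cells, MP cells, their mean, their difference, between WT populations and between KO populations were 5, 8, 9, 0, 9 and 8 with mouse means. With mouse as a random block over all arrays (correlation 0.442) they were 18, 12, 20, 4, 16 and 14 (15.1%, 9.18%, 18%, 2.56%, 26.4% and 26.1% of all genes), and with array number added as a replicate block 18, 12, 20, 4, 17 and 14 (14.5%, 8.73%, 17.6%, 2.27%, 25.6% and 25.4%). The array numbers do not pair the samples: deviations of arrays with the same number from other mice had a median correlation of 0.00567 (-0.250 to 0.277 over 84 pairs). Without mice 1 and 5, which had a Kdm5d signal, the counts were 2 in LSK cells, 3 in MP cells and 2 between WT populations (1.87%, 1.37% and 3.48% of all genes). With plain eBayes they were 3 in LSK cells (Slc3a2 was gained) and 3 in MP cells (3.09% and 1.62%). Leaving out 1 mouse at a time gave 3 to 8, 3 to 8, 8 to 12, 0 to 3, 2 to 11 and 3 to 16, with 2.42% to 5.46%, 1.1% to 3.08%, 4.47% to 8.32%, 0.0564% to 0.659%, 6.07% to 15.5% and 5.28% to 15.1% of all genes. The difference reached 3 without mouse 4 (Vldlr, Cth and Cbs). The cause of these shifts was not tested. Probes near the floor, such as those of Slc7a3 and Cbs in WT cells, Nupr1 in WT MP cells and Cth in WT LSK cells, may understate a change.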
